A study of Mus musculus with 12 samples.

Results

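The 10 genes described here encode brakes on the ERK branch of MAP kinase signalling and 1 of its transcription factors: Dusp1, Dusp4, Dusp5, Dusp6, Spry1, Spry2, Spry4, Spred1, Spred2 and Etv5. They were picked by gene symbol, and all 10 were found among the 17564 genes listed. RNA came from the ventral hippocampus of male mice of C57BL/6 background, in 4 groups of 3 libraries. WT VEH and BDNF het-Met VEH mice drank 1% ethanol, and WT CORT and BDNF het-Met CORT mice drank corticosterone (CORT, the main glucocorticoid of rodents) at 25 mg/l in that vehicle, in each case for 6 weeks starting at an age of 2 months. BDNF het-Met mice carry 1 copy of a knock-in allele that puts methionine in place of valine in the pro-region of brain-derived neurotrophic factor, in every cell that uses the gene. Each library pooled the RNA of 2 animals, so differences between single animals cannot be seen.

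The measurement used is the authors' mean level of each gene over all libraries of their fit, in log2 CPM, where CPM scales the counts of a library to a common total. It carries no SD and no n of its own, and it is the same for both genotypes and both treatments. The fit lists 7 residual degrees of freedom where 12 libraries in 4 groups would leave 8. A library left out and a further term in the fit cannot be told apart here, so the mean may not cover every library. Values per library or group were not analysed here, and the effect of CORT on these genes was therefore not tested. The levels below describe the tissue across all groups taken as 1, and the order of 2 genes has no error against which it could be tested.

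In the ERK pathway, receptors such as TrkB, the receptor of brain-derived neurotrophic factor, switch on RAS, which drives a chain of kinases that ends in ERK. Active ERK raises the transcription of its own inhibitors. Some dual-specificity phosphatases (DUSPs) remove phosphate from ERK, and some act on the related kinases p38 and JNK. Sprouty and Spred proteins act further upstream, between the receptor and RAF, and Dusp1 is also a textbook target of glucocorticoids.

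Short promoter stretches are shown for Dusp1 and Dusp5, the genes whose promoter held a full cAMP response element or a serum response element, both known as sites through which activity and ERK signalling reach immediate early genes. The letters are those of RefSeq on GRCm38.p6, in the direction of transcription, and capitals mark the element. The Dusp1 stretch, on the minus strand of chromosome 17 (chr17:26508573-26508672), runs from base -200 to base -101 before the start, with the palindrome TGACGTCA in capitals. The Dusp5 stretch, on the plus strand of chromosome 19 (chr19:53529025-53529104), runs from base -120 to base -41, with 2 adjoining serum response elements in capitals.
Dusp1: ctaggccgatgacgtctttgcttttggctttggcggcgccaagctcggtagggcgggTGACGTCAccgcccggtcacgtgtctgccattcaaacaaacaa
Dusp5: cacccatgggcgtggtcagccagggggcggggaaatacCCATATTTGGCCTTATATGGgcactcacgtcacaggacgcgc

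Promoter windows of 300 bases (250 before and 50 after a start) were found for 8 of the 10 genes, 9 windows in all since Etv5 had 2, and none for Dusp4 and Spry4. For the window of Spred1 and for 1 of those of Etv5, the bases after the start were not found in an annotated transcript of the gene. The full cAMP response element TGACGTCA stood in 1 of the 9 windows, that of Dusp1, against 1.79% of 32851 windows over all genes. Its core TGACG, which also lies within the full element, was found in the windows of 3 genes (Dusp1, Dusp5 and Spred2), against 20.8% of all windows. The serum response element (CArG box) was found in 1 window, that of Dusp5, against 1.63% of all. The glucocorticoid response element (a palindrome around free bases), which 0.475% of all windows held, was found in 0 of the 9, as were the TATA box TATAAA (13.6% of all) and the ETS core CCGGAAG (8.86% of all). Both strands were searched, and each match describes the letters and not the use of the site. Sites outside these 300 bases were not searched, so a motif absent here may lie elsewhere near the gene. The windows of these genes held from 57.0% to 74.0% G and C with a median of 64.3%, where the median of all windows was 52.7%. All windows were not limited to protein-coding genes or to the genes listed, so this is no comparison with like genes.

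By log2 CPM, with no correction for length, the values of the 10 genes were these. Spred1 had a mean level of 7.34 log2 CPM (162 CPM) and exceeded 92.7% of all genes listed, and Spred2 had a level of 6.54 log2 CPM (93.2 CPM) and exceeded 86.3%. Etv5 had 5.50 log2 CPM, Dusp6 had 5.24 and Spry2 had 4.93. Dusp5 had 3.88, Spry4 had 3.68 and Dusp4 had 3.64. Dusp1 had 3.33 log2 CPM (10.1 CPM) and Spry1 had 3.13 log2 CPM (8.76 CPM), and these genes exceeded 43.0% and 40.5% of the genes. The median of all genes was 3.87 log2 CPM, and 6 of the 10 genes lay above it, among which Dusp5 was the nearest to it. The levels of the 10 genes summed to 427 CPM.

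A long transcript collects more reads than a short one at the same number of molecules, so genes were compared with each other per kilobase (kb), of all exonic bases unless the longest coding transcript is named. On this scale Spred1 (4.58 log2 CPM per kb) and Spred2 (4.33) came first, and Spry2 (3.87), Dusp6 (3.59) and Etv5 (3.47) came next. Dusp5 (2.57) and Dusp4 (2.18) lay in the middle, and Dusp1 (1.60), Spry1 (1.59) and Spry4 (1.43) came last. The widest step between neighbours in this order was that from Etv5 to Dusp5, of 0.90 on the log2 scale (1.86-fold), which divides the 5 higher from the 5 lower genes. Dusp1 and Spry1 were nearly level, with a step of 0.012, and Dusp6 and Etv5 differed by 0.12. The level of Spred1 per kb was 8.88 times that of Spry4. The median of all genes was 1.96 log2 CPM per kb, and 7 of the 10 genes lay above it, while Dusp1, Spry1 and Spry4 lay below. Per kb of the longest coding transcript the median of all genes that have one was 2.79, and 5 of the 10 genes lay above it, with Dusp4 and Dusp5 below as well.

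**Figure D1:**
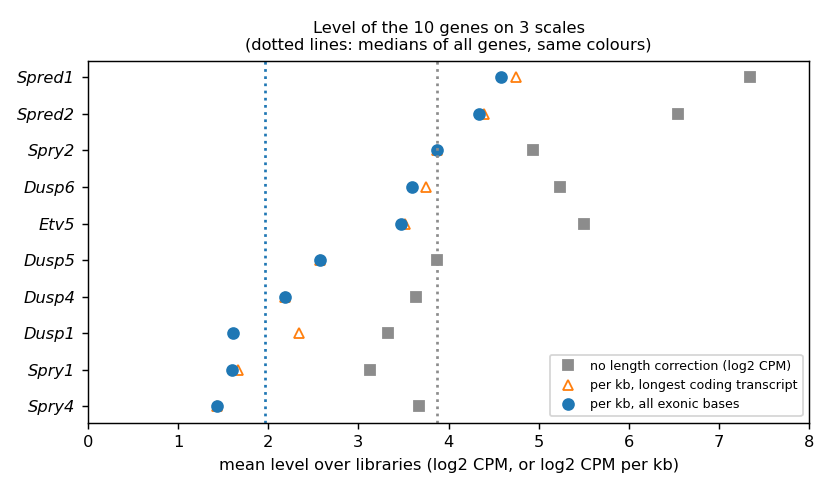
Mean level over all libraries of each of the 10 genes (rows), as log2 CPM (squares), as log2 CPM per kb of all exonic bases (circles) and per kb of the longest coding transcript (triangles), with dotted lines at the medians of all genes for the squares and circles. Points are the authors' means and have no error bars; the Spred genes are at the right on each scale, and Dusp1 is the gene that moves most between both length corrections, from 1.60 to 2.34.

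Of the 4 phosphatases Dusp6 was the highest. Dusp6, which acts on ERK in the cytoplasm, had 12.03 CPM per kb, 2.03 times the level of Dusp5 and 3.96 times that of Dusp1. Dusp5, a nuclear phosphatase with a preference for ERK, had 5.93 CPM per kb. Dusp4, nuclear as well and less choosy among MAP kinases, had 4.55 CPM per kb. Dusp1, a nuclear phosphatase encoded by an immediate early gene, had 3.04 CPM per kb, and its place depends on the gene model. The annotation (GENCODE M21, GRCm38) gives Dusp1 (ENSMUSG00000024190, chromosome 17, 26505590 to 26562128, minus strand) a span of 56539 bases with 3311 exonic ones, whereas its longest coding transcript has 1990 bases. Per kb of that transcript Dusp1 had 5.06 CPM, above Dusp4 at 4.55, and Dusp6 was 2.66 times as high as Dusp1. The RefSeq start used for the promoter stretch lies inside that span. Dusp1 also shares 11 exonic bases with Ergic1 on the other strand, a gene of 6.94 log2 CPM. The other phosphatase genes have compact models, with Dusp4 (ENSMUSG00000031530) on chromosome 8 from 34807297 to 34819894, Dusp5 (ENSMUSG00000034765) on chromosome 19 from 53529109 to 53542431 and Dusp6 (ENSMUSG00000019960) on chromosome 10 from 99263231 to 99267489, each on the plus strand.

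Among all 21 DUSP genes listed, taken by symbol and not by whether they act on ERK, these 4 were not the leading ones. Dusp6 was the fifth by level per kb, Dusp5 the ninth, Dusp4 the twelfth and Dusp1 the fifteenth. Per kb of the longest coding transcript Dusp6 was again the fifth, and Dusp5, Dusp1 and Dusp4 took places 12, 13 and 15. Without a length correction Dusp6, Dusp5, Dusp4 and Dusp1 took places 7, 11, 14 and 15. The highest were Dusp8 (4.97 log2 CPM per kb), a phosphatase of JNK and p38, and Dusp3 (4.87). The lowest were Dusp9 (-1.84) and Dusp2 (-1.91), the second known from activated immune cells.

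The Sprouty genes were unequal. Spry2 had 14.7 CPM per kb, 4.86 times the level of Spry1 at 3.01 and 5.45 times that of Spry4 at 2.69. Spry3, the remaining gene of the family, lay between them at 3.57 CPM per kb. Spry2 (ENSMUSG00000022114, chromosome 14, 105891947 to 105896819, minus strand) has 2 exons in its longest coding transcript and 2087 exonic bases, the fewest of the 10 genes, so it moved from place 5 by log2 CPM to place 3 per kb. Spry1 (ENSMUSG00000037211, chromosome 3, 37639947 to 37644598, plus strand) shares 710 exonic bases with Gm42922 on the opposite strand, and Spry4 (ENSMUSG00000024427, chromosome 18, 38586247 to 38601415, minus strand) has 4755 exonic bases.

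Spred proteins carry a Sprouty-related domain and bring the RAS-inactivating protein neurofibromin to the membrane. The RNA levels of Spred1 and Spred2 were above those of each of the 4 Sprouty genes. Spred1 had 23.9 CPM per kb and Spred2 had 20.2 CPM per kb, while their relative Spred3, at 6.84 CPM per kb, was below Spry2. Without a length correction Spred3 was above Spry2, at 42.5 CPM against 30.6 CPM. Nf1, which encodes neurofibromin, had 9.77 CPM per kb. Spred1 (ENSMUSG00000027351, chromosome 2, 117121374 to 117182279, plus strand) lies on the chromosome of Bdnf, at a distance of 7.39 Mb. Spred2 (ENSMUSG00000045671, chromosome 11, 19924375 to 20024026, plus strand) has the widest span of the 10 genes, 99652 bases. Both have 7 exons in their longest coding transcript.

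**Figure D2:**
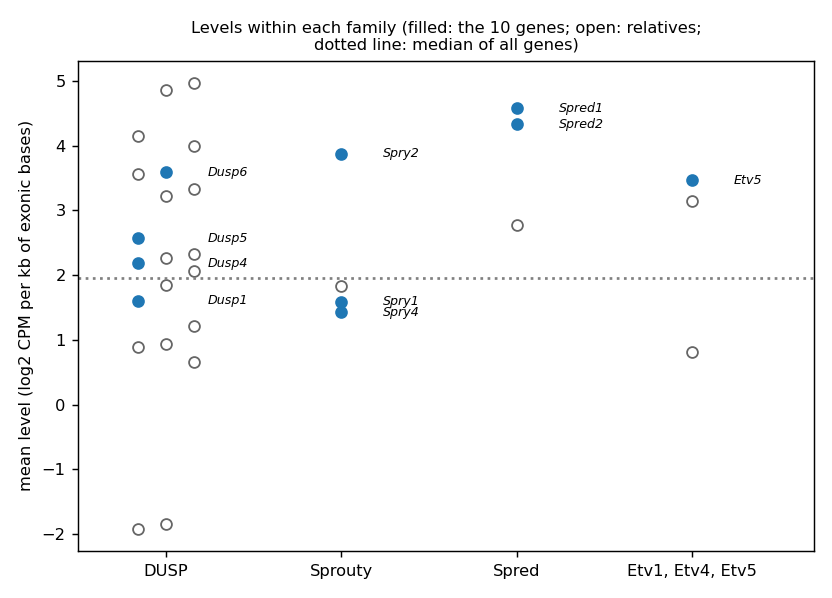
Mean level (log2 CPM per kb of exonic bases, vertical axis) of every listed DUSP, Sprouty and Spred gene and of Etv1, Etv4 and Etv5, with the 10 genes filled and named and their relatives open. Spred1, Spred2 and Spry2 are at the top of their families, and Dusp6, at 3.59, is the fifth of 21 DUSP genes. Etv5 is above Etv1 on this scale, an order that turns per kb of the longest coding transcript (3.51 against 4.17); points are means with no error bars.

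Etv5, a transcription factor of the ETS family whose transcription follows growth factor signalling, had 11.1 CPM per kb. Its close relatives had 8.88 CPM per kb (Etv1) and 1.76 CPM per kb (Etv4). The order of Etv5 and Etv1 depends on the gene model, since per kb of the longest coding transcript Etv1 was the higher, at 4.17 against 3.51 on the log2 scale, and without a length correction Etv1 had 118 CPM and Etv5 45.4 CPM. Etv5 (ENSMUSG00000013089, chromosome 16, 22381309 to 22439719, minus strand) shares 1700 bases at 98.6% identity with Gm4798, which is listed at 2.37 log2 CPM, so some reads of either gene could have been credited to the other. No match of at least 75 bases at 98% identity to another gene was found for the other members, apart from the genes that overlap Dusp5 (AC137853.2, 547 bases) and Spry1 on the opposite strand. The use of strand in counting is not given in the sources used here, so reads of such partners cannot be told apart.

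The 41 other genes given here, of the ERK pathway and the families of the feedback genes, were all listed, with a median of 3.15 log2 CPM per kb, and 33 of them lay above the median of all genes. The median of the 10 feedback genes was 3.02 log2 CPM per kb. Without a length correction the medians lay further apart, at 5.66 log2 CPM for the 41 genes and 4.41 for the 10. The highest of these 41 were Map2k1, which encodes the ERK-activating kinase MEK1 (6.62), and Mapk3, which encodes ERK1 (6.37), both on the scale of log2 CPM per kb. Each of these 2 kinases stood above Spred1, the highest of the 10 genes. The 41 include 10 further DUSP, Sprouty and Spred genes, of which Dusp8 and Dusp3 also stood above Spred1 per kb. Without a length correction both lay below Spred1, at 7.25 (Dusp8) and 7.09 (Dusp3) against 7.34 log2 CPM. Ntrk2, which encodes TrkB, had 5.38 log2 CPM per kb, and Bdnf had 2.59, close to Dusp5 on this scale only. Without a length correction Bdnf had 5.23 log2 CPM, against 3.88 for Dusp5. The lowest of the 41 were Dusp2 and Dusp9.

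**Figure D3:**
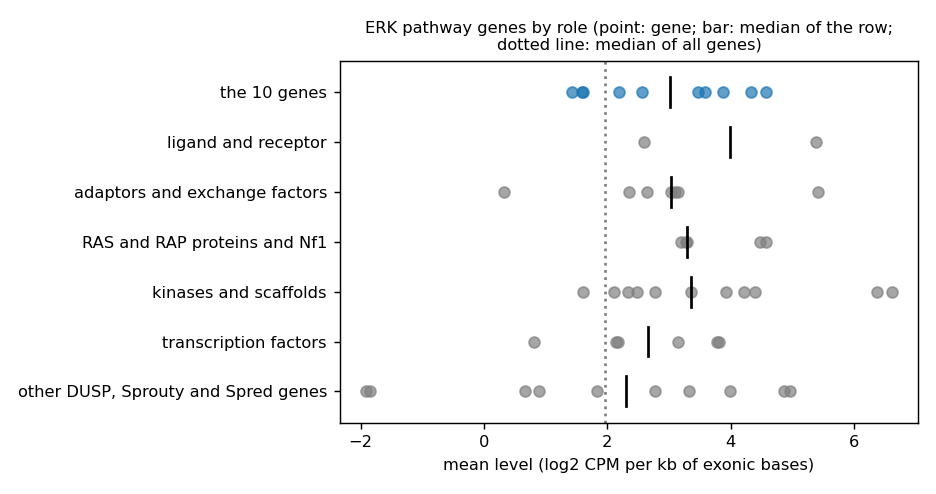
Mean level (log2 CPM per kb of exonic bases, horizontal axis) of the 10 genes and of 41 further genes of the ERK pathway and the feedback families by role, where each point is a gene, each bar the median of its row and the dotted line the median of all genes (1.96). The 10 genes run from 1.43 to 4.58, and the kinases reach 6.62; points are means with no error bars.

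Cell type markers were read in the same means, and none of them was chosen to mark the ventral part of the hippocampus. Neuron markers (Snap25, Syt1 and Rbfox3) had 7.87 to 11.4 log2 CPM, pyramidal cell markers 7.63 to 10.5, and dentate granule cell markers 5.93 to 6.68. Interneuron markers had 7.81 to 8.57 log2 CPM. Astrocyte markers had 8.004 to 9.72, oligodendrocyte markers 5.18 to 10.5, microglia markers 5.46 to 6.64 and endothelial markers 4.41 to 6.36 log2 CPM. Ttr, an abundant choroid plexus gene, had 9.44 log2 CPM, beside 2.19 for Kcnj13 and 2.84 for Folr1 of the same tissue. In bulk tissue the number of cells of a type and the RNA per cell cannot be told apart, and the part of each cell type in the levels of the feedback genes was not tested.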

How the data were processed

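Per the labels and the methods of the study, the authors discarded reads of low quality, aligned single-end reads with STAR to GRCm38 (mm10), counted them per gene with featureCounts against Ensembl genes and fitted limma-voom. No source used here names tool versions, the filter on low genes or normalization factors. The 2 deposited tables, 1 per genotype, hold log2 values of the authors' mean expression (log2 CPM, identical in both tables for all 17564 genes), which were used. Their other measurements are the authors' own comparisons of VEH and CORT (log2 fold change, its error, t, F and p-values), which were not used, so the planned test of the CORT effect was not run. The study gives an approximate sequencing depth for its samples, but the depth of each single library was not available here.

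Symbols were matched exactly. Exonic bases came from GENCODE M21 by Ensembl identifier, which 17557 genes matched and 7 did not. Log2 CPM per kb is log2 CPM minus the log2 of exonic kb. A percentile is the share of genes with a lower level. Transcripts were compared with blastn 2.17.0. Promoters are from RefSeq (GRCm38.p6). Calculations used Python 3.11.15 and were tested on simulated data. The members and lists were chosen with earlier results of these data known. All 10 members were named, and of the other genes those of the ERK pathway and marker lists. Other relatives, genes sharing sequence and promoter motifs were added after the values were seen. Of the pathway list, 1 gene is not reported here.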

Additional observations from a re-analysis of the deposited data

How the results depend on the processing

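No paired analysis was possible because the result comes from no test and no value per library was used. For the same reason the replicate block, leaving out replicates, the filter on low values and the pseudocount were not run. The median level of the 10 genes was 4.41 log2 CPM without a length correction, 3.02 per kb of all exonic bases and 3.04 per kb of the longest coding transcript, the last chosen after seeing the data. Between both length corrections Dusp1 and Dusp4 traded places 7 and 8, and the other 8 genes kept theirs. Etv5 fell below Etv1 (3.51 against 4.17). The median was 2.79 among the 14475 genes with a coding transcript, against 1.96 per kb of exonic bases among 17557 genes. Dusp4 and Dusp5 had the same level on both scales but lay below the higher median. Hence 5 of the 10 genes lay above the median, rather than 7. The share of genes below each member moved by -5.84 to 15.8 percentage points per kb of exonic bases and by -18.3 to 5.31 per kb of transcript. The latter shares are among the genes with a coding transcript only. Among the 14213 genes with a RefSeq protein each of the 10 ranked lower, with shifts of -9.80 to -1.47 points. Among the 8782 genes above the median level, where Dusp1, Dusp4, Spry1 and Spry4 could not be ranked, the others ran from 0.114% (Dusp5) to 85.4% (Spred1). With no spread between libraries, no order of neighbouring genes could be tested.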
